A study of Mus musculus with 12 samples.

Results

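Olfactory receptor genes were examined as a set of regions in a ChIP-seq study of histone H3 lysine 14 acetylation (H3K14ac) in mouse neural stem and progenitor cells. Members were all genes whose mouse symbol is Olfr followed by a number, without the suffix for pseudogenes, that lie on an autosome and have a row in both deposited count tables. The rule found 1102 of the 27095 genes in the tables (4.07%), of which RefSeq lists 1094 as protein coding. A further 6 genes of that name lie on the X chromosome and were not members. The members lay on 16 chromosomes, with 288 on chromosome 2, 237 on chromosome 7 and 132 on chromosome 9. Joining neighbours less than 1 Mb apart gave 47 clusters, and the 22 clusters with at least 10 members held 1020 of the genes. Clusters are named here by chromosome and order along it, so that 9.1 is the first cluster on chromosome 9. The rule itself uses no measured value, but it was chosen with earlier results of these data known.

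The cells came from the cortex and ganglionic eminences of E14.5 embryos and were grown as neurospheres, floating balls of dividing cells, in medium for proliferation. To obtain differentiating cells, neurospheres were taken apart and the cells moved to laminin and a neuronal medium. Each stage had 3 wild-type (WT) H3K14ac libraries, 1 WT input library, 1 IgG library and 1 H3K14ac library from Hbo1 null cells, which makes 12 libraries in all. Input is chromatin sequenced without precipitation, IgG is an antibody with no histone target, and HBO1 (gene Kat7) is an acetyltransferase that makes H3K14ac. The labels give no genotype for the IgG libraries, their antibody field names the H3K14ac antibody for all 12 libraries, IgG and input included, and none of the labels used here says how Hbo1 was deleted. The series names 4 WT foetuses but not which library came from which. The p-values below thus rest on how much libraries of a group differed, taken over many genes together, and that spread may be purely technical. The measurement is of bulk chromatin, so fewer cells with the mark and less mark per cell cannot be told apart.

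Olfactory receptors are G protein-coupled receptors that bind odorants on the cilia of sensory neurons in the nose. Each mature neuron is known to express a single receptor gene from a single allele, while the rest of the family is held in compacted chromatin that carries repressive histone methylation. The genes usually have their whole coding sequence in a single exon and sit in large arrays made by gene duplication. The transcription factors LHX2 and EBF and the adaptor LDB1 act together on enhancers of the family during receptor choice. H3K14ac, by contrast, is found at the starts of active genes, and neural stem cells are not known as a site of receptor expression.

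The annotated starts of the receptor genes differ in base composition from those of most other genes. Of their promoters, 4 are shown beside that of Lhx2 to make this visible. Each sequence runs from 250 bases before to 50 bases after the annotated start, 5′ to 3′, from RefSeq on GRCm38.p6, and capitals mark CpG dinucleotides. Olfr77 had the highest ratio of WT to input among receptor gene bodies with a mean count of at least 30, Olfr16, Olfr558 and Olfr90 are receptors with a published ligand or function, and Lhx2 represents a gene whose start was above input in WT.
Olfr77: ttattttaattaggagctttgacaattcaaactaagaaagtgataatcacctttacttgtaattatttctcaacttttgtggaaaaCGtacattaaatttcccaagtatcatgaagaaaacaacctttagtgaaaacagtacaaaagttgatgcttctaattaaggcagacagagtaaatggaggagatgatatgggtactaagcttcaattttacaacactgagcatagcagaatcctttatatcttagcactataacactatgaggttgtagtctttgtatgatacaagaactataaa
Olfr16: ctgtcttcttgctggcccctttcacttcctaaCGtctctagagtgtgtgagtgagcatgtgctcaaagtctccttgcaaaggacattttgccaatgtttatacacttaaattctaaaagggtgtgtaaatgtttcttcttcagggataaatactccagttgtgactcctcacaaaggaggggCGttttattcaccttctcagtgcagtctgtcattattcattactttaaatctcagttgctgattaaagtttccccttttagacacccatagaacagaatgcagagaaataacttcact
Olfr558: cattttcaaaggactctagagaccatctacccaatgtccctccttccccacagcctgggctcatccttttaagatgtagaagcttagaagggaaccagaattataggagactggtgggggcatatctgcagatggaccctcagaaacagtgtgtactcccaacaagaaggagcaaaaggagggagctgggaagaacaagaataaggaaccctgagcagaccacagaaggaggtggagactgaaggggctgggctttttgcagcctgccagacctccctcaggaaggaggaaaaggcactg
Olfr90: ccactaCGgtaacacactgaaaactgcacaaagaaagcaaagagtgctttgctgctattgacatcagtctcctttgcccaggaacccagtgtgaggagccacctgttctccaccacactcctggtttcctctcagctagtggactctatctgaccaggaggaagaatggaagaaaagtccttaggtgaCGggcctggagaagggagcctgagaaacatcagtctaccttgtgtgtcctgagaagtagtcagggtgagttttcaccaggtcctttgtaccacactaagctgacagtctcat
Lhx2: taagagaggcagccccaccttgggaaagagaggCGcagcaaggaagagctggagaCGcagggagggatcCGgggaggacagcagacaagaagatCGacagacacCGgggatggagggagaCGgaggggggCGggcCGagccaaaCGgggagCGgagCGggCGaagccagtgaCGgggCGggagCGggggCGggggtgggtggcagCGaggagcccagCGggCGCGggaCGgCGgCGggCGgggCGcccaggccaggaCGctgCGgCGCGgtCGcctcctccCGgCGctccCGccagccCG
The windows are chr9:19916979-19917278 (plus strand) for Olfr77, chr1:172956518-172956817 (plus) for Olfr16, chr7:102702073-102702372 (plus) for Olfr558, chr17:37086187-37086486 (minus) for Olfr90 and chr2:38339031-38339330 (plus) for Lhx2. Lhx2 held 34 CpG in its 300 bases at a GC content of 74.7%. Olfr77 held 1 CpG at 31.0% GC, Olfr16 held 2 at 40%, Olfr558 held 0 at 51.3% and Olfr90 held 2 at 49.7%.

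Promoter sequences matched 930 of the 1102 members (934 promoters, since a few genes have more than 1 start). Their median GC content was 35%, against 57.0% over 21337 promoters of other genes, and the median number of CpG was 1 against 14. A promoter with 10 or more CpG was found in 0.214% of the receptor promoters and in 58.7% of the others. The TATA box letters TATAAA, searched on both strands, were present in 41.1% of receptor promoters and 11.2% of others. The homeodomain letters TAATTA occurred in 18.8% against 3.89%, and TAATGA in 29.0% against 7.39%. The letters CCCNNGGG, part of the motif of EBF proteins, went the other way, at 3.10% against 16.2%. These counts are of letters in windows of very different base composition and say nothing of binding. In the Olfr77 promoter above, TAATTA occurred 3 times and TATAAA 2 times, counting both strands, whereas Olfr558, Olfr90 and Lhx2 held no copy of these or of the other homeodomain letters.

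The reads were counted in a TSS window, the first 1000 bases of a gene as annotated, and over the gene body, which includes that window. The gene body of a receptor was short, with a median of 945 bases against 12111 over all genes in the tables. For 852 members (77.3%) the body was at most 1000 bases, so that the window is the whole annotated gene, and 250 were longer. Whether the annotated starts of the receptor genes are their true starts of transcription was not tested. Gene body totals ran from 3992697 to 17074249 counts in the WT libraries, were 11871306 and 12689734 in the inputs and 2526252 and 2771713 in the IgG libraries. The null libraries held 64071 and 320601 counts. At that depth the median receptor body had 5 to 9 counts in a proliferating WT library, 16 to 21 in a differentiating one, 14 and 17 in the inputs and 3 in each IgG library. In both null libraries the median was 0, so there the receptors were read as sums. Of the lists of cell markers, 12 of 16 neural stem cell TSS windows were higher in WT than in input, and 0 of 7 microglial, 0 of 7 endothelial and 0 of 6 meningeal windows tested were (edgeR adjusted p under 0.05, where 11.6% of all windows tested were higher). Against IgG, the only stem cell windows called were Egfr and Msi1, just past the threshold (edgeR adjusted p = 0.0437 and 0.0466), where 5.13% of all windows were higher. Over gene bodies 3 of 8 meningeal genes (Col3a1, Dcn and Lum) and 1 of 8 endothelial genes (Emcn) were higher than input and 1 meningeal gene was lower, where 8.43% of all bodies were higher and 21.3% lower, and 0 of 8 microglial genes were called. Against IgG 0 of 8 bodies were called in each of these lists. Their part in the receptor results was not tested.

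At neither stage did the summed receptor windows of WT cells stand clear of all controls. In CPM, counts per 1000000 gene body counts of a library, the receptor windows of proliferating WT libraries held 1391, 1259 and 1234 counts (1295 ± 84.5, SD, n = 3), while input held 1236, IgG 1213 and the null library 1249. In differentiating WT libraries they held 1381, 1364 and 1343 (1363 ± 19.0, SD, n = 3), while input held 1357, IgG 1189 and null 1188. The lowest proliferating WT library was thus below its input and the highest above it, and the 3 differentiating libraries lay on both sides of theirs. The log2 ratio of WT to input was 0.06 ± 0.09 (SD, n = 3) in proliferating and 0.01 ± 0.02 in differentiating cells. The WT libraries were above IgG at both stages, by 0.09 ± 0.09 and 0.20 ± 0.02, and IgG was below input by 0.03 and 0.19 on the same scale. The null sums rested on 80 and 381 counts, and their 95% exact Poisson intervals, which cover counting error only, ran from 990 to 1554 and from 1072 to 1314 CPM. The null interval overlapped the WT range in proliferating cells and lay below it in differentiating cells, where it also lay below input.

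As a share of all counts in TSS windows, the same sums gave another order. Receptor windows made up 3.05%, 2.57% and 2.54% of the TSS counts of the proliferating WT libraries, below the 3.68% of input, 3.63% of IgG and 4.41% of null. In differentiating WT cells they made up 3.76%, 4.21% and 3.92%, around the 4.21% of input, 4.10% of IgG and 4.06% of null. On this scale the 2 stages of WT did not overlap, and the receptors were 0.44 ± 0.15 below input (log2, SD, n = 3) in proliferating cells and 0.09 ± 0.08 below it in differentiating cells. The total over all TSS windows, by which these shares are divided, was itself 4.56% to 4.90% of gene body counts in proliferating WT libraries and 3.24% to 3.68% in differentiating ones, against 3.36% and 3.23% in the inputs. The receptor windows were therefore level with input against the gene bodies at both stages and below input against the TSS windows in proliferating cells, where other windows held more counts.

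**Figure D1:**
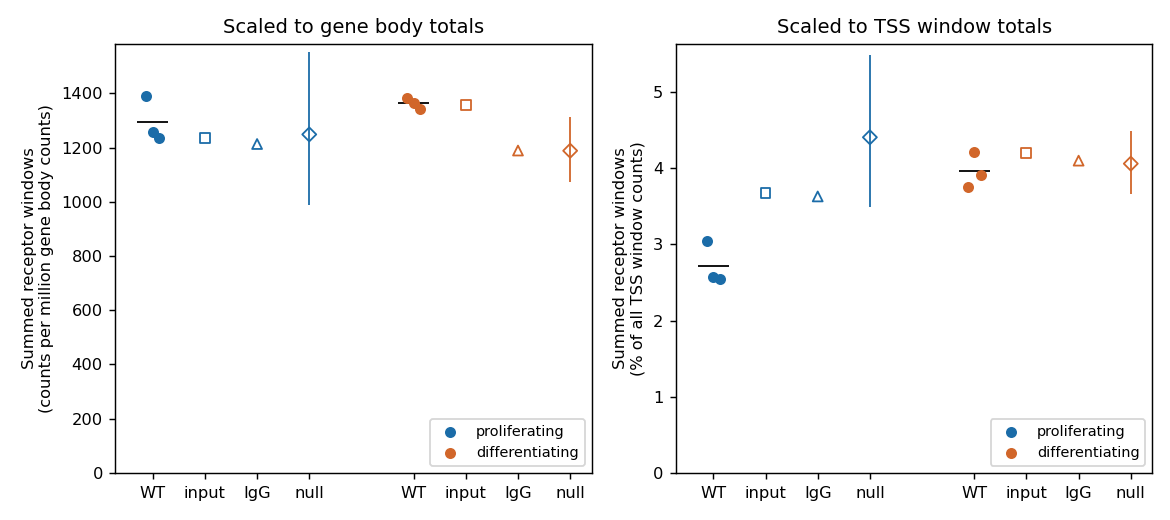
Summed counts of the 1102 receptor TSS windows in each of the 12 libraries, in CPM (left) and as a percentage of all TSS window counts (right). Filled points are WT libraries with their mean as a line, open symbols are the single control libraries, and the line through null is its 95% exact Poisson interval. On the left the WT libraries lie around their input at both stages, and on the right the proliferating WT libraries lie at 2.54% to 3.05%, under the 3.68% of their input.

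Between the stages, the receptor windows rose or stood still depending on what they were scaled to. With TMM scaling, which assumes that most windows do not change, 78 of the 939 members that passed the filter on low counts were higher in differentiating cells and 0 were lower (edgeR adjusted p under 0.05, n = 3 each). Among all 19477 windows tested 395 were higher, which is 2.03%, and 890 were lower, which is 4.57%. In this fit and in those of windows against controls, the spread was pooled almost fully over windows. A window's own scatter between libraries thus hardly entered its p-value. The median log2 change was 0.58 over the receptors and 0.02 over all windows. With gene body totals in place of TMM, 16 receptors were higher and 7 lower, against 0.329% and 25.7% of all windows, and the medians were 0.09 and −0.47. Relative to the median of all windows the receptors stood higher under both. The filter is a mean of 10 raw counts, and the differentiating libraries are the deeper ones, so a receptor with few counts in proliferating cells could pass through its counts in differentiating cells. With no filter 42 of 1102 were higher and 0 lower, where 0.916% of all windows were higher and 3.92% lower, and the receptor median was 0.49. DESeq2 called 0 of the 939 in either direction, where it called 0.0976% of all windows higher and 2.92% lower.

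The inputs of the 2 stages differed by about as much as WT did. Summed over all members, the windows changed by a log2 of 0.08 in WT, by 0.13 in input and by −0.03 in IgG, in CPM. When the change in WT was tested against that in input gene by gene, 0 of 1011 receptor windows passed in either direction (edgeR interaction term, 37 with an unadjusted p under 0.05), where 0.0% of all windows were higher and 0.0278% lower. The median was −0.07 over the receptors and −0.37 over all windows. Against IgG, 0 of 441 passed (27 with an unadjusted p under 0.05), where 0.0304% of all windows were higher, with medians of −0.02 and −0.26. Both of these tests were added after the data were seen, and they assume that the single control of a stage varies like the WT libraries. Neither test was simulated, so what change they could have found is not known. For the plain comparison of WT stages, in data simulated at its depth with a single spread for all windows, 8.57% of windows changed by a fold of 2 were called and 90% at a fold of 3.

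**Figure D2:**
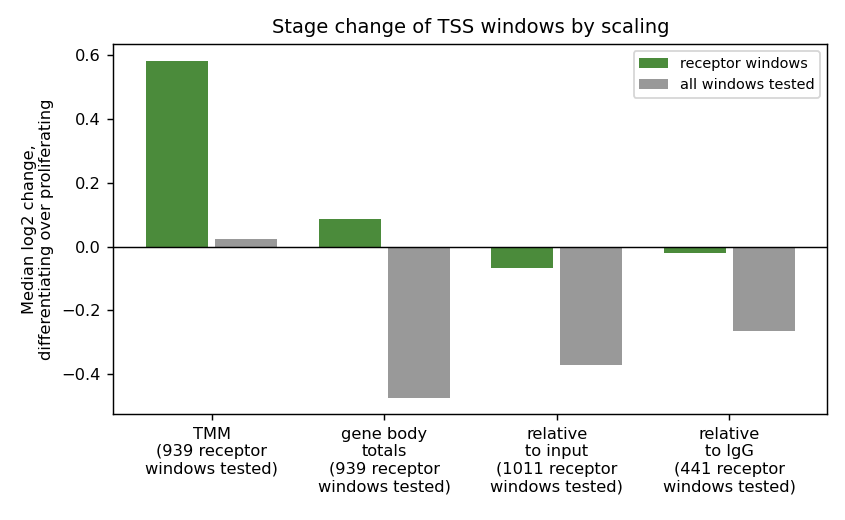
Median log2 change from proliferating to differentiating cells over the receptor windows tested (green) and over all windows tested (grey), for TMM scaling, gene body totals, and the change relative to that of input or IgG. The receptor median is 0.58 with TMM and between −0.07 and 0.09 in the other 3, and it lies above the median of all windows in each.

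No receptor window passed with a mean count of 30 or more, since none of the 939 reached that depth, and the 3 with the smallest p are given as examples. Olfr607 (cluster 7.5) had 0, 2 and 3 window counts in WT libraries of proliferating and 7, 22 and 35 in those of differentiating cells. In CPM this was 0.00, 0.50 and 0.39 against 0.56, 1.72 and 2.05, beside 0.34 and 0.39 in the inputs of the 2 stages and 0.40 and 1.80 in IgG (log2 change 2.72, SE 0.54, edgeR adjusted p = 0.000323). The WT stages did not overlap, and the IgG libraries differed in the same direction. Olfr603 (cluster 7.5) held 0.88, 0.75 and 0.39 against 1.83, 2.03 and 1.64 CPM, with inputs at 1.01 and 1.5 (log2 2.03, SE 0.42, edgeR adjusted p = 0.000609). Its proliferating WT libraries lay below their input and its differentiating ones above theirs. Olfr1162 (cluster 2.2) held 0.44, 0.00 and 0.53 against 1.27, 1.25 and 1.29, with inputs at 1.18 and 1.89 (log2 2.24, SE 0.54, edgeR adjusted p = 0.00412). There all 6 WT libraries stood below the input of their stage. Without proliferating WT replicate 3 the number of receptor windows called higher dropped from 78 to 9, and it lay between 21 and 73 without each of the others.

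Over gene bodies few genes of any kind passed between the stages, and no receptor did. Of 972 members tested 0 passed in either direction (edgeR, TMM scaling, n = 3 each), 74 had an unadjusted p under 0.05, and DESeq2 called 0. Over all 24564 gene bodies 0.0366% were higher and 0.126% lower (0.151% and 0.59% with DESeq2), so the count of 0 is near that over all genes. The summed receptor bodies held 1980, 1867 and 1846 CPM in proliferating and 2021, 2043 and 2044 CPM in differentiating WT cells, without overlap, a log2 change of 0.10. Input changed by 0.12 and IgG by 0.06 on the same scale. The median log2 change was 0.14 over the receptors and 0.00 over all genes. Relative to the change in input 0 of 1059 bodies passed, with 26 at an unadjusted p under 0.05, and over all genes 0.0% were higher and 0.0% lower. Relative to IgG 0 of 530 passed, with 21 at an unadjusted p under 0.05, and 0.0127% of all genes were higher. The medians over the receptors were −0.05 in both. Olfr1032 (cluster 2.2) had the smallest p relative to input and did not pass: it held 0.44, 0.50 and 0.66 CPM in WT libraries of proliferating and 1.35, 1.41 and 1.52 in those of differentiating cells, while input went from 1.35 to 0.79. Olfr338 (cluster 2.1) went the other way, with 2.42, 1.75 and 1.58 CPM against 1.35, 1.41 and 1.23 in WT while input went from 0.51 to 1.5, and did not pass either. In both, the input moved against WT between stages.

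Compared with input, gene bodies of 51 receptors were higher in WT and 6 were lower, of 1059 tested (edgeR, both stages together with a stage term, 6 WT and 2 input libraries). Of all 24848 gene bodies tested, 8.43% were higher and 21.3% lower. For the receptors these shares were 4.82% and 0.57%, below those over all genes. The calls were not spread evenly over lengths. Of 249 receptor bodies over 1000 bases 45 were higher and 1 lower, while of 810 at most 1000 bases long 6 were higher and 5 lower. A longer body holds more counts, so the chance to pass a test also grows with length. The median log2 ratio to input was 0.24 over the longer ones and 0.00 over the shorter ones, against −0.14 over all genes. Leaving out an input library left an arm of 1 sample, and then 9 receptors were higher without the differentiating input (2.94% of all genes) and 0 without the proliferating one, where 0.0% of all genes passed.

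IgG showed much of the same excess over input in these longer genes. For the 250 receptors over 1000 bases, the part of the gene beyond the TSS window was above input by a log2 of 0.33 ± 0.03 (SD, n = 3) in proliferating and 0.41 ± 0.07 in differentiating WT cells. IgG was above input there by 0.28 and 0.43, so that WT over IgG came to 0.06 ± 0.03 and −0.02 ± 0.07. In the TSS windows of the same 250 genes, WT was above input by 0.21 ± 0.03 and 0.20 ± 0.03, and IgG by 0.03 and 0.07. The 852 short receptors were level with input in WT, at 0.02 ± 0.12 and −0.05 ± 0.03, while IgG was below input by 0.04 and 0.26. Over all members together, WT gene bodies were above input by 0.15 ± 0.05 and 0.13 ± 0.01 and above IgG by 0.08 ± 0.05 and 0.12 ± 0.01.

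**Figure D3:**
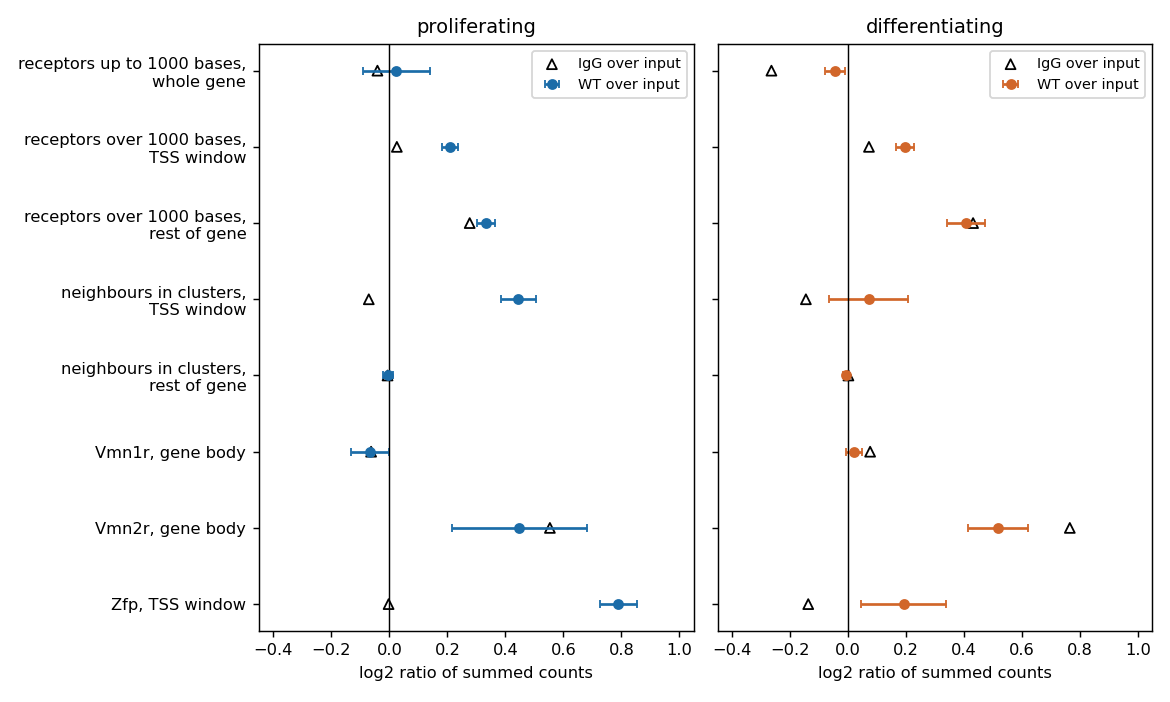
log2 ratio to input of summed CPM in proliferating (left) and differentiating (right) cells, for receptor genes by length and part of the gene, other genes inside the receptor clusters, and the gene families Vmn1r, Vmn2r and Zfp. Circles are the mean of 3 WT libraries with their SD, triangles the single IgG library. For the rest of the longer receptor genes the IgG triangle lies at or near WT, whereas for the TSS windows of the neighbours and of Zfp genes WT lies to its right in both stages.

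Olfr77, on chromosome 9 (19917229 to 19922510, 5282 bases, cluster 9.1), had the largest ratio to input among receptors with a mean count of at least 30. Its gene body held 1.54, 2.76 and 4.20 CPM in proliferating and 4.14, 5.4 and 6.15 CPM in differentiating WT libraries, against 1.18 and 1.26 in input (log2 1.74, SE 0.35, edgeR adjusted p = 0.0039). The 6 WT libraries lay above both inputs, and IgG, at 5.54 and 3.97 CPM, lay above the WT libraries of its stage in proliferating cells and just below them in differentiating cells. Olfr39, in the same cluster (20282351 to 20286648), held 2.20, 4.01 and 3.68 and then 2.79, 3.52 and 5.21 CPM in WT against 1.01 and 1.34 in input (log2 1.60, SE 0.33, edgeR adjusted p = 0.00457). Its IgG values of 4.75 and 7.58 CPM were above every WT library of their stage. Olfr181, on chromosome 16 (58925557 to 58928644, cluster 16.4), held 2.64, 5.76 and 3.15 and then 2.63, 4.07 and 4.22 CPM against 1.60 and 1.1 in input and 2.77 and 2.89 in IgG (log2 1.46, SE 0.33, edgeR adjusted p = 0.00769). WT was above input in 6 of 6 libraries and overlapped IgG.

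The other receptors named by the same rule were Olfr1082 in cluster 2.2 and Olfr860 and Olfr58 in cluster 9.1, at log2 ratios to input of 1.36, 1.34 and 1.28 (SE 0.26, 0.27 and 0.27, edgeR adjusted p = 0.00304, 0.00424 and 0.00562). Their WT libraries did not overlap the inputs. Olfr1082 held 4.35 and 5.77 CPM in IgG against WT means of 3.34 ± 1.13 and 5.29 ± 0.47 (SD, n = 3 each). Olfr860 held 3.17 and 5.05 in IgG against 3.25 ± 0.83 and 4.64 ± 1.06, and Olfr58 held 2.38 and 3.61 against 3.67 ± 1.12 and 4.07 ± 0.64. So 4 of these 6 receptors lie in cluster 9.1, and all 6 had IgG values within or above their WT range in at least 1 stage. Without either input library none of the 6 passed, at edgeR adjusted p between 0.0543 and 0.141. No receptor body met the rule among those lower than input.

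In TSS windows 16 receptors were higher than input and 5 lower, of 1011 tested, where 11.6% of all 21557 windows were higher and 0.881% lower. The receptor shares were 1.58% and 0.49%, and the medians were 0.01 over the receptors and 0.25 over all windows. DESeq2 called 0 receptors, where it called 5.41% of all windows higher and 0.121% lower. With TMM scaling 6 receptors were higher and 25 lower, where 6.41% of all windows were higher and 3.06% lower. None had a mean count of 30. The smallest p belonged to Olfr1134 (cluster 2.2), whose window held 80 counts over the 6 WT libraries and 1 over the 2 inputs, a ratio of 33.6 per sequenced count (exact binomial interval 5.85 to 1342, which pools the libraries and covers counting error only, edgeR adjusted p = 9.75e-06). Its WT windows held 0.66, 1.00 and 1.18 and then 1.51, 0.94 and 1.93 CPM, and IgG held 0.79 and 2.16, in the range of WT or above it. Olfr921 (cluster 9.2) held 0.44, 1.00 and 1.58 and then 1.20, 1.33 and 1.46 CPM against 0.42 and 0.24 in input and 0.00 and 0.36 in IgG (log2 over input 1.90, SE 0.49, edgeR adjusted p = 0.00412). Its WT libraries exceeded both kinds of control in 6 of 6 libraries. Olfr943 (cluster 9.2), at 0.22, 0.75 and 1.71 and then 1.35, 1.49 and 1.41 CPM against 0.34 and 0.24 in input (log2 2.08, SE 0.51, edgeR adjusted p = 0.00225), overlapped input in its lowest WT library. Its IgG held 0.40 and 2.16 CPM, the latter above all 3 differentiating WT libraries. Olfr1134, Olfr943 and Olfr921 had mean counts of 10.1, 10.5 and 10.4, with few counts in input. They passed the filter of 10 through their WT libraries, so their p-values are not independent of it.

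Against IgG no receptor body passed. Only 530 members had enough counts to be tested, 0 were higher or lower, and 37 had an unadjusted p under 0.05 (edgeR), where 0.54% of all gene bodies were higher and 0.739% lower. DESeq2 called 0 receptors, and 0.84% and 1.04% of all bodies. In TSS windows 5 of 441 were higher and 0 lower, against 5.13% higher and 0.205% lower over all windows, and the medians were 0.28 and 0.67. The filter is a mean of 10 raw counts and the WT libraries are deeper than IgG, so a window could pass it through WT alone. With no filter 4 of 1102 receptors were higher and 0 lower, where 420 of 26976 windows were higher and 63 lower. With TMM scaling 0 receptors were called, where 0.106% of all windows were higher and 0.296% lower. DESeq2 called 0 higher and 1 lower, where it called 0.0076% and 0.532% of all windows. Olfr92 (cluster 17.2) and Olfr517 (cluster 7.6) had no count in either IgG library. Measured against a floor of 3 counts over both IgG libraries, their windows were at least 2.56-fold and at least 2.41-fold higher in WT (edgeR adjusted p = 0.0145 and 0.0183). Both windows passed the filter, at mean counts of 10.6 and 10.0, through WT alone, so these p-values are not independent of it. Olfr92 held 1.98, 0.75 and 1.58 and then 1.27, 1.56 and 1.46 CPM in WT, and its inputs, at 1.77 and 1.42, lay inside that range. Olfr517 held 1.1, 0.75 and 1.71 and then 1.51, 1.33 and 1.35 CPM, with inputs at 1.43 and 0.87. Olfr781 (cluster 10.2) had 1 count in IgG and 98 in WT, a ratio of 8.87 (exact binomial interval 1.55 to 354, counting error only, edgeR adjusted p = 0.0369), and its WT values of 2.20, 1.75 and 1.84 and then 1.75, 1.25 and 1.70 CPM were also above the inputs at 1.18 and 0.71. The other 2 windows called are not named by the rule. Without the differentiating IgG library 0 receptor windows were higher (2.72% of all windows), and without the proliferating one 0 as well (0.0% of all).

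By chromosome, the ratio of summed receptor bodies to input was highest on chromosome 16 (38 members), at a log2 of 0.55 ± 0.09 in proliferating and 0.49 ± 0.08 in differentiating WT cells (SD, n = 3 each). There WT held 62.5 ± 4.14 and 63.3 ± 3.32 CPM, input 42.5 and 45.2, and IgG 55 and 59.9. The IgG library was above input by 0.37 and 0.41, and the 95% counting interval of IgG, 46.3 to 65.0 and 51.1 to 69.7 CPM, took in the WT mean at both stages. Chromosome 10 (66 members) followed in proliferating cells, at 0.36 ± 0.01, and was at 0.21 ± 0.07 in differentiating ones. Chromosome 9 (132 members) was close to it, with WT over input at 0.35 ± 0.10 and 0.42 ± 0.07 and IgG over input at 0.21 and 0.44. On chromosome 2, with the most members, WT was above input by 0.20 ± 0.04 and 0.21 ± 0.02, and on chromosome 7 it was level with it, at 0.00 ± 0.14 and −0.03 ± 0.02. Among chromosomes with more than 5 members the lowest were chromosome 15 (9 members) at −0.19 ± 0.19 in proliferating cells and chromosome 13 (13 members) at −0.16 ± 0.05 in differentiating cells. On both, the WT range overlapped the counting interval of input.

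The order against IgG was another. Chromosome 10 had the highest ratio to IgG in proliferating cells among chromosomes with more than 5 members, at a log2 of 0.52 ± 0.01, and was at 0.19 ± 0.07 in differentiating cells. Its proliferating WT libraries held 113 to 115 CPM, above the intervals of both input (82.9 to 93.7) and IgG (68.6 to 90.9). In differentiating cells they held 107 to 118 CPM, above the interval of input (92.2 to 103) and overlapping that of IgG (87.5 to 111). Chromosome 17 (50 members) was lowest against IgG in proliferating cells within the same limit, at −0.28 ± 0.04, and was at 0.07 ± 0.05 in differentiating cells. The WT sum there moved from 72.4 ± 1.89 to 81.6 ± 2.71 CPM, input from 74.4 to 86.0, and IgG from 87.9 to 77.6, so IgG moved against the other libraries.

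**Figure D4:**
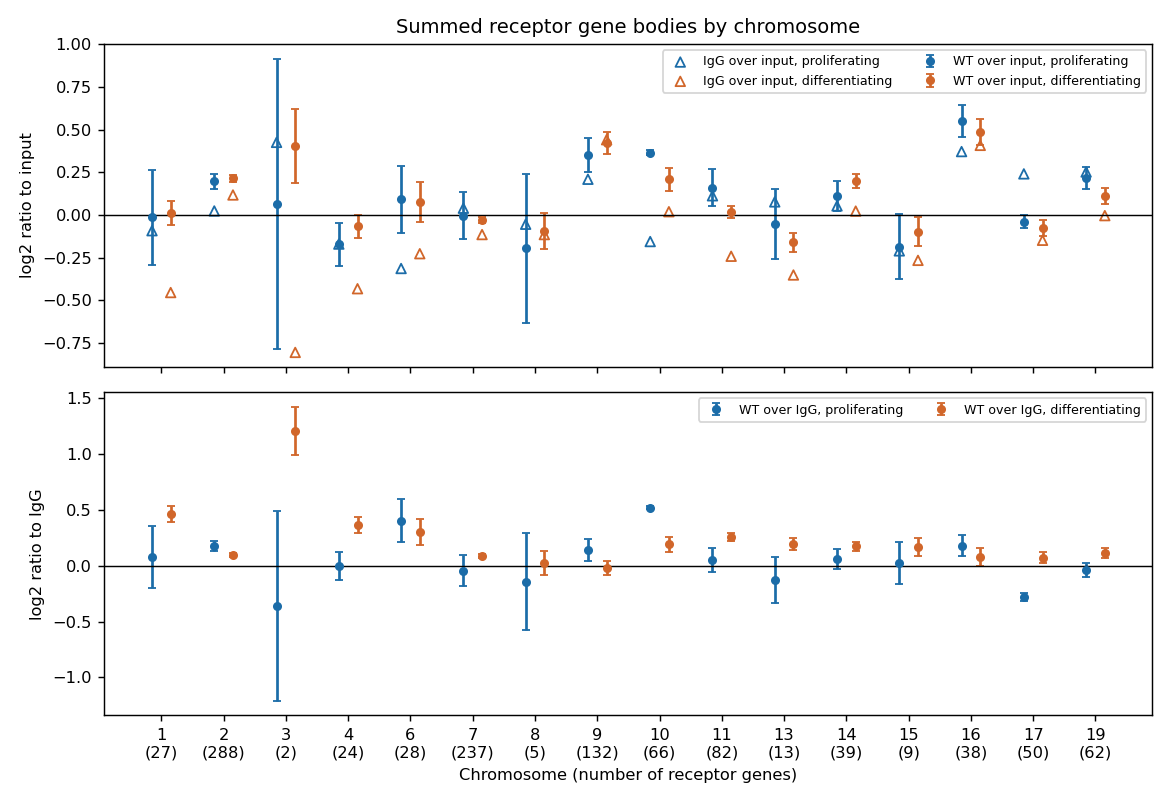
log2 ratio of summed receptor gene bodies (CPM) to input (top) and to IgG (bottom) for the 16 chromosomes with members. Circles are means of 3 WT libraries with their SD, and triangles in the upper panel are the IgG library over input. Chromosomes 9 and 16 lie above input in WT and IgG alike, and chromosome 10 lies above both controls in proliferating cells. Chromosome 3 has 2 members and chromosome 8 has 5, and their values spread widely.

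Across the 22 clusters with at least 10 members, the ratio of WT to input ran from −0.19 to 0.66 (log2) in proliferating and from −0.17 to 0.68 in differentiating cells, with medians of 0.16 and 0.09. All 3 WT libraries lay above the counting interval of input in 9 of the 22 clusters at each stage, and below it in 0 and 2. Against IgG they lay above the interval in 4 and 7 and below it in 1 and 0. The intervals cover the counting error of the single control only, so they are narrower than the spread a second control library would show. IgG over input ran from −0.75 to 0.49 and from −0.77 to 0.85. In 31 of the 44 pairs of cluster and stage, WT and IgG lay on the same side of input, and since both ratios share that input library this count is a description only.

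Clusters 16.4 and 9.1 stood highest above input. Cluster 16.4 (chromosome 16, 58.8 to 59.4 Mb, 27 members) held 49.7 ± 3.33 and 49.3 ± 3.18 CPM in WT, 31.5 and 33.5 in input, and 43.5 and 46.5 in IgG. WT over input was thus 0.66 ± 0.10 and 0.56 ± 0.09, and WT over IgG 0.19 ± 0.10 and 0.08 ± 0.09. Cluster 9.1 (chromosome 9, 18.8 to 20.3 Mb, 35 members) held 90.3 ± 13.2 and 106 ± 8.70 CPM in WT, 59.2 and 66.0 in input, and 83.1 and 119 in IgG. Its WT over input was 0.60 ± 0.22 and 0.68 ± 0.12, and its WT over IgG 0.11 ± 0.22 and −0.17 ± 0.12. Cluster 9.1 held 7 of the 51 receptor bodies called higher than input, from 31 tested, cluster 16.4 held 6 from 25, and cluster 9.2 held 8 from 96. The median GC content of their promoters was 30.8% in cluster 9.1, the lowest of the 22, and 34.8% in cluster 16.4. Cluster 7.3 (chromosome 7, 86.3 to 86.7 Mb, 15 members) followed at the later stage, at 0.52 ± 0.11 over input, where IgG stood 0.66 over input.

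Cluster 7.6 (chromosome 7, 106.7 to 108.9 Mb, 65 members) was the lowest against input in proliferating cells. Its WT sums of 80.2 ± 6.95 and 92.7 ± 1.89 CPM compared with 91.4 and 99.8 in input and 87.1 and 89.1 in IgG, which gave WT over input of −0.19 ± 0.12 and −0.11 ± 0.03. Cluster 2.1 (chromosome 2, 36.4 to 37.3 Mb, 27 members) was the lowest in differentiating cells, at −0.17 ± 0.02, and it stood at −0.09 ± 0.29 in proliferating ones. Cluster 6.2 (chromosome 6, 41.8 to 43.2 Mb, 21 members) had the highest ratio to IgG in proliferating cells, at 0.88 ± 0.31, with 0.60 ± 0.19 in differentiating ones. Its IgG sums, 38 and 48 counts, were 0.75 and 0.68 below input (log2), and its WT sums were level with input at 0.13 ± 0.31 and −0.08 ± 0.19. Cluster 10.2 (chromosome 10, 129.0 to 130.2 Mb, 56 members) was above both controls in proliferating cells, with WT at 75.5 to 76.9 CPM, input at 59.3 (interval 55 to 63.9) and IgG at 52.3 (43.7 to 62.0). In differentiating cells it held 71.3 to 81.1 CPM against 66.4 (62.0 to 71.1) in input and 65.3 (56.1 to 75.5) in IgG.

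**Figure D5:**
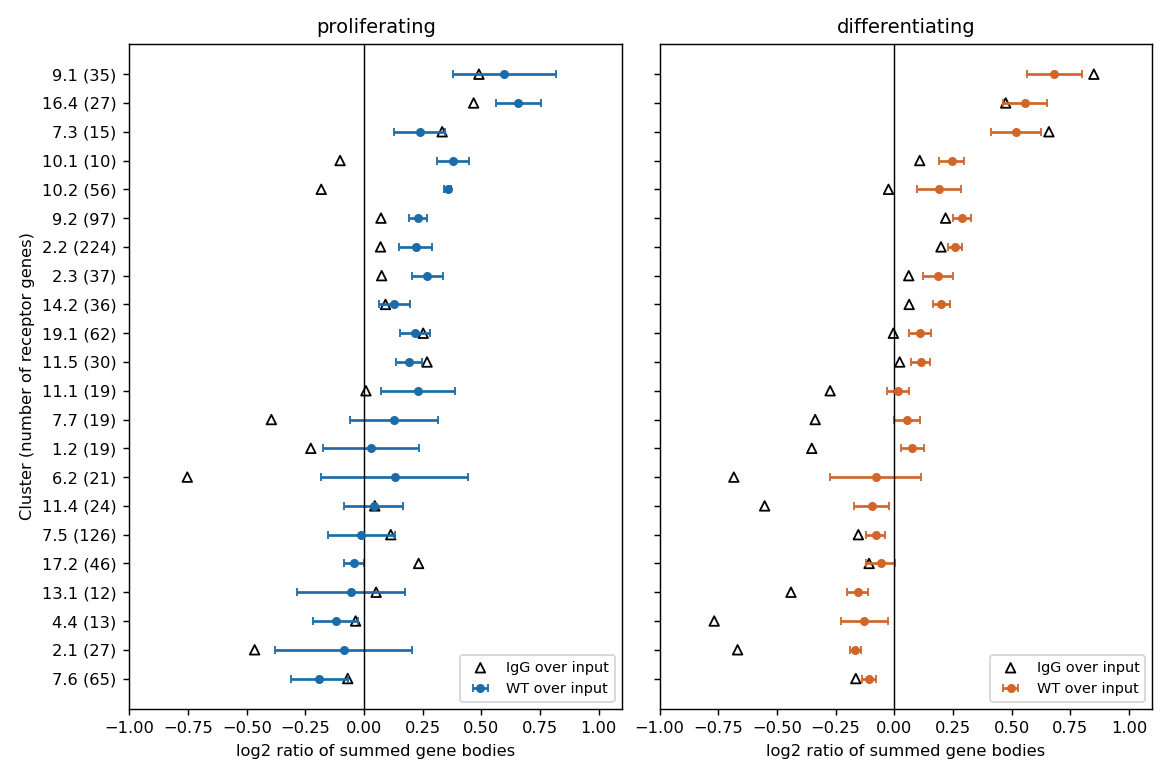
log2 ratio of summed receptor gene bodies to input for the 22 clusters with at least 10 members, in proliferating (left) and differentiating (right) cells, ordered by the mean WT ratio. Circles are means of 3 WT libraries with their SD, and open triangles are the single IgG library over the same input. In clusters 9.1, 16.4 and 7.3 the IgG library lies above input as well, and in cluster 6.2 it lies well below input while WT lies near 0.

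The receptors with a published ligand or function gave no call for more signal than input. Of 14 such genes tested over gene bodies, 0 were higher and 1 was lower, with a median log2 ratio of 0.00, where 8.43% of all bodies were higher and 21.3% lower. With 14 genes such counts do not set them apart from other genes. Olfr78, a receptor for short-chain fatty acids known from kidney and the carotid body, was the deepest sampled, with 18.7, 16.3 and 17.3 CPM in WT libraries of proliferating and 17.9, 21.0 and 19.9 in those of differentiating cells. Its inputs held 15.5 and 14.8 CPM and IgG 18.6 and 24.2, so WT was above input in 6 of 6 libraries and overlapped IgG (log2 over input 0.30, SE 0.10, edgeR adjusted p = 0.0508, which passed at 0.0168 with TMM scaling). Olfr558, its neighbour in cluster 7.5 and also a receptor for small fatty acids, held 10.6, 11 and 10.9 and then 10.9, 12 and 11.5 CPM, with inputs at 9.01 and 10.4 and IgG at 5.54 and 9.38 (log2 over input 0.19, SE 0.10, edgeR adjusted p = 0.173). It too was above both inputs in 6 of 6 libraries without passing.

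Olfr90 (cluster 17.2) was the 1 known receptor called lower than input. It held 0.88, 1.00 and 1.18 CPM in WT libraries of proliferating and 0.88, 1.02 and 0.82 in those of differentiating cells against 2.11 and 1.58 in input (log2 −0.89, SE 0.25, edgeR adjusted p = 0.0214). IgG was lower still, at 0.40 and 0.72 CPM, and the call rested on 4 to 14 WT counts a library. It did not pass without either input (edgeR adjusted p = 0.128 and 0.199). Olfr544, a receptor for azelaic acid, held 4.51 ± 1.08 and 4.47 ± 0.72 CPM (SD, n = 3 each) against 5.64 and 5.12 in input and 7.13 and 5.05 in IgG. Olfr1507, much used in studies of receptor choice, held 6.42 ± 1.14 and 6.65 ± 1.22 against 5.90 and 6.07 in input and 10.3 and 7.58 in IgG. For both, WT overlapped input.

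The remaining known receptors were at 0.77 to 4.51 CPM as WT stage means and were not told apart from input. Olfr69 held 3.32 ± 1.41 and 4.51 ± 0.41 against 3.12 and 3.62 in input. Olfr2, a receptor for octanal, held 1.84 ± 0.58 and 1.19 ± 0.26 against 1.43 and 1.5, and Olfr16, a receptor for lyral also known from sperm, held 1.42 ± 0.30 and 1.64 ± 0.33 against 1.68 and 1.73. Olfr151 held 1.77 ± 0.39 and 1.18 ± 0.07 against 0.84 and 1.97 and Olfr160 1.23 ± 0.56 and 1.36 ± 0.37 against 1.1 and 1.58, and both respond to acetophenone. Olfr17, a classic gene of axon targeting studies, held 1.22 ± 0.68 and 1.25 ± 0.02 against 1.26 and 1.34, and Olfr690 held 1.33 ± 0.42 and 1.24 ± 0.38 against 1.77 and 1.26. Olfr73, a receptor for eugenol, held 0.77 ± 0.48 and 1.53 ± 0.18 against 1.26 and 0.87, and Olfr1393, a renal receptor, held 0.99 ± 0.67 and 1.20 ± 0.25 against 0.59 and 1.18. Of the 10 tested, Olfr73 alone was called between the stages in its TSS window (log2 1.31, SE 0.40, edgeR adjusted p = 0.0291 with TMM scaling), and it was not called with gene body totals (edgeR adjusted p = 0.139). Its window held 4, 1 and 9 counts against 21, 17 and 27, so it passed the filter through differentiating cells.

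Some genes of the receptor system outside the family had windows above input, mostly in a list that also holds general heterochromatin genes. In the list of regulators of receptor choice and of heterochromatin, 9 of 22 TSS windows were higher in WT than in input and 0 lower (edgeR adjusted p under 0.05), with a median log2 ratio of 0.31. Over all windows tested 11.6% were higher and 0.881% lower. Lhx2, which also patterns the cortex, held 16, 13 and 31 window counts in WT libraries of proliferating and 16, 11 and 20 in those of differentiating cells, against 6 and 10 in the deeper inputs (log2 1.70, SE 0.40, edgeR adjusted p = 0.0017). IgG held 7 and 2 counts there, in libraries of 2526252 and 2771713 gene body counts against 11871306 and 12689734 in the inputs. Per gene body count, IgG thus lay between input and WT in proliferating cells and below both in differentiating cells. Kmt5b, a histone H4 methyltransferase, stood at 2.08 (SE 0.44, edgeR adjusted p = 0.00045) and Cbx3, a heterochromatin protein, at 1.62 (SE 0.41, edgeR adjusted p = 0.00357). Kmt5b also passed against IgG (log2 2.05, SE 0.58, edgeR adjusted p = 0.0223). Over gene bodies, those of this list with the smallest p against input were lower in WT. They were Setdb1, Ehmt2 and Ehmt1 (log2 −0.66, −0.75 and −0.37, edgeR adjusted p = 0.000721, 0.000871 and 0.0027). Of the odorant transduction genes 1 of 18 passed, which did not exceed the share over all windows. It was Gnb1, a G protein subunit used in many tissues, at 2.02 (SE 0.42, edgeR adjusted p = 0.000474), with 9 and 6 counts in input and 6 and 0 in IgG. The markers of olfactory sensory neurons in that list, Omp, Gnal, Adcy3, Cnga4 and Stoml3, were not among the windows called. Over gene bodies Adcy3 was lower than input (log2 −0.27, SE 0.08, edgeR adjusted p = 0.0218). Of the same list, the body of Pde1c was higher (log2 0.26, SE 0.05, edgeR adjusted p = 0.00374) and that of Pde4a lower (log2 −0.45, SE 0.11, edgeR adjusted p = 0.0138). Over all gene bodies 8.43% were higher and 21.3% lower. Of genes specific to other tissues (liver, muscle, blood and germ line among them) 0 of 21 windows tested were called.

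The genes that lie between the receptors were summed in the same way. The spans of the clusters held 196 other protein-coding genes. Their windows were above input by a log2 of 0.45 ± 0.06 (SD, n = 3) in proliferating and 0.07 ± 0.14 in differentiating WT cells, where the receptor windows stood at 0.06 ± 0.09 and 0.01 ± 0.02. Among these neighbours 15 of 169 windows tested were higher than input and 2 lower, where 11.6% of all windows were higher and 0.881% lower, so the share higher did not exceed that over all windows. The smallest p belonged to Vmn2r89, a pheromone receptor gene inside cluster 14.2. It held 5, 4 and 14 and then 19, 14 and 32 counts against 3 and 5 in input and 3 and 5 in IgG (log2 over input 2.12, SE 0.47, edgeR adjusted p = 0.000851). Zfp62, inside cluster 11.1, held 10, 14 and 26 and then 31, 18 and 19 counts against 7 and 10 in input (log2 1.67, SE 0.40, edgeR adjusted p = 0.00217), and Zfp91, inside cluster 19.1, stood at 1.61 (SE 0.40, edgeR adjusted p = 0.003). Zfp62 and Zfp91 encode zinc finger proteins. Beyond the window, the bodies of the neighbours were level with input at 0.00 ± 0.02 and −0.01 ± 0.01. No test of the difference between the receptors and their neighbours was made.

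A neighbour in cluster 7.5 set the IgG libraries apart from the rest. Trim12a, a gene of the tripartite motif family on chromosome 7 (104299893 to 104315558), had 1 gene body count in each IgG library, against 69 to 277 in the WT libraries, 170 and 184 in the inputs, and 1 and 4 in the far shallower null libraries (log2 WT over IgG 5.31, SE 0.38, edgeR adjusted p = 1.35e-05). Trim5 beside it had 3 and 10 counts in IgG against 176 and 204 in input. Ifi203, in cluster 1.2, went the other way, with WT below IgG (log2 −0.76, SE 0.10, edgeR adjusted p = 0.00221). Whether the IgG cells differ from the WT cells in genotype or strain is not given in the labels, and the part of this in the ratios of receptors to IgG was not tested.

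Other chemosensory receptor families were read beside the olfactory receptors. Of 121 Vmn2r genes, pheromone receptors with several exons and long bodies, 93 were higher than input over the gene body and 0 lower, with a median log2 ratio of 0.54, and their sums in IgG were above input by 0.55 and 0.76. Against IgG 1 was higher and 8 were lower. Over all gene bodies 8.43% were higher and 21.3% lower than input, and 0.54% and 0.739% than IgG. Of 187 Vmn1r genes tested against input, which like most olfactory receptors have a single coding exon, 3 were higher and 3 lower, with a median of −0.02. Bitter taste receptors (Tas2r) gave 1 higher and 1 lower of 33, and trace amine receptors (Taar) 0 of 14. In TSS windows Zfp genes gave 62 higher than input and 0 lower of 333, where 11.6% of all windows were higher and 0.881% lower. In the stage comparison with TMM, 15 of 155 Vmn1r windows, 18 of 87 Vmn2r windows and 3 of 33 Tas2r windows were higher and 0 lower, beside 0 of 13 Taar windows and 2.03% of all windows.

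The ratio to input varied with promoter base composition, falling with rising GC up to 60% in other genes but not throughout in receptors. Among genes with a mean of at least 10 WT counts, 228 other genes with a promoter GC content under 35% had a median log2 ratio of WT to input of 0.45 in proliferating and 0.36 in differentiating cells, and their IgG to input medians were 0.37 and 0.45. The 406 receptors in the same range had medians of 0.18 and 0.11 in WT and 0.19 and 0.05 in IgG. Over all members the median receptor body held 3 counts in each IgG library, against 14 and 17 in the inputs. Ratios of IgG to input for single receptors are therefore coarse. How far the handling of such low counts moves the IgG medians of receptors was not tested. Summed over the short receptors of any GC content, IgG was below input at both stages, as given above. The IgG medians of receptors thus do not show that IgG matched WT. In 6946 other genes with 60% GC or more the WT medians were −0.17 and −0.20 and the IgG medians −0.05 and −0.20. Receptors at 35% to 40% GC (226 genes) had WT medians of 0.09 and 0.06, those at 40% to 45% (115 genes) 0.01 and −0.04, and those at 45% to 50% (48 genes) 0.13 and −0.03, with IgG medians of 0.19 and −0.43 in the last. So in proliferating cells the receptor medians did not fall throughout with rising GC. Genes entered these ranges through their WT counts alone, so a receptor with few input counts could pass through WT. The medians of WT over input are therefore not independent of the filter. The part of base composition in the receptor results was not tested.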

How the data were processed

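The authors deposited read counts per gene for TSS windows and for gene bodies in 2 tables, and the 24 files of single libraries hold the same counts. Reads were assigned with featureCounts on mm10, per the submitters' processing notes. The aligner, and how reads that match several genes were treated, are not given in the sources used here, which bears on a family of similar genes. Gene IDs were named with RefSeq (25204 of 27095 matched).

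Counts were tested with edgeR 4.0.16 (quasi-likelihood, Benjamini-Hochberg adjustment over all genes tested, threshold 0.05) in R 4.3.3, on genes with a mean of at least 10 counts in the libraries compared. The comparison of stages used TMM scaling, and comparisons with controls used gene body totals with a stage term. Each SE printed for a gene is the absolute log2 change divided by the square root of its F statistic, not a separate estimate. DESeq2 1.42.0 was an alternative. The fits between stages and those of gene bodies against input and IgG were tested on simulated data. The fits of windows against controls and the interaction terms were not. The null libraries were too shallow for tests per gene. CPM are per 1000000 gene body counts, and intervals are 95% exact Poisson intervals for counting error only.

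Named receptors were up to 6 of the largest rises and of the largest falls past the threshold, with a mean count of at least 30 and no overlap between groups, otherwise the 3 with the smallest p, and a list of known receptors. Members and lists were chosen with earlier results of these data known. Replicate numbers did not pair the libraries, as the closing section describes.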

Additional observations from a re-analysis of the deposited data

Results flagged for a closer look

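In 3 sums of receptor gene bodies all 3 WT libraries lay on one side of IgG in proliferating cells and on the other in differentiating cells, and the difference was not tested. On chromosome 17 WT over IgG was −0.28 (log2) in proliferating and 0.073 in differentiating cells, with IgG at 222 and 215 counts. In cluster 4.4 it was −0.0844 and 0.64, with IgG at 44 and 29 counts. In cluster 11.5 it was −0.0773 and 0.0897, with IgG at 163 and 170 counts. Each rests on a single IgG library per stage, and the WT range lay inside the 95% counting interval of IgG in cluster 11.5 at both stages, in cluster 4.4 in proliferating cells and on chromosome 17 in differentiating cells.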

How the results depend on the processing

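The 78 receptor windows higher between stages became 16 with gene body totals (where 7 were lower), 42 with no filter, and 0 with DESeq2, relative to input and relative to IgG. With a mean count of at least 30 no receptor window was left to test (0 of 0). Leaving out 1 library gave 9 to 73. The replicate block gave 60 higher and 0 lower over windows and 0 over bodies. Same-numbered libraries correlated at −0.236, 0.184 and −0.32 (deviations from the stage mean), so the numbers do not pair them. Against input, bodies higher (51) ranged from 0 to 60 without 1 library, and bodies lower (6) from 0 to 18, with 0 in DESeq2 and at a mean of 30, and 3 with no filter or TMM. Windows higher than input (16) became 0 with DESeq2 and at a mean of 30, 33 with no filter, 6 with TMM, and 3 to 22 without 1 library. Windows lower than input (5) became 0, 0 and 25 (DESeq2, mean of 30, TMM), and 0 to 6. Against IgG, windows higher (5) became 0 with DESeq2, TMM or a mean of 30, and 0 to 6 without 1 library, and windows lower (0) became 1 with DESeq2 and 0 to 1. Bodies higher than IgG (0) ranged from 0 to 1. The causes were not tested.

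For summed bodies, WT over input in proliferating cells (log2 0.15) was 0.25 with TMM, −0.44 for windows over TSS totals, 0.0263 for members up to 2000 bases, 0.0237 up to 1000, and 0.11 to 0.17 without 1 library. In differentiating cells (0.13) these were 0.26, −0.0874, −0.0299, −0.0457 and 0.12 to 0.13. WT over IgG in proliferating cells (0.08) was 0.14 with TMM and −0.42 over TSS totals, and 0.05 to 0.10 without 1 library. In differentiating cells (0.12) it was 0.10 with TMM, −0.0513 over TSS totals, 0.22 for both length limits, and 0.12 to 0.13. The stage change (0.10) was 0.16 with TMM, 0.55 over TSS totals, and 0.08 to 0.13. A gap of 0.5 Mb gave 52 clusters. Of the other values under alternatives (single receptors and the number of clusters), 974 kept direction and side of the threshold, 71 changed direction, 41 lost the call and 8 gained it. The planned check on protein identity was not run. Depth limits every value of a single receptor.

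Log2 values of single receptors changed sign 71 times in 32 results, and in 0 of these was the value past the threshold before or after. Between stages over bodies, with the replicate block, Olfr17 went from −0.0021 to 0.003. Between stages over bodies, with DESeq2, Olfr17 went from −0.0021 to 0.0199. Between stages over windows, relative to input, Olfr1393 went from 0.69 to −0.79, Olfr1507 from 0.48 to −0.22, Olfr544 from 0.11 to −0.998, Olfr69 from 0.92 to −0.36, Olfr17 from 0.45 to −0.13 and Olfr160 from 0.53 to −0.49. Between stages over windows, with gene body totals, Olfr1507 went from 0.48 to −0.0143, Olfr544 from 0.11 to −0.39, Olfr690 from 0.47 to −0.0194 and Olfr17 from 0.45 to −0.0482. Between stages over windows, relative to IgG, Olfr160 went from 0.53 to −6.10. Against input over bodies, with TMM, Olfr2 went from −0.0062 to 0.11, Olfr17 from −0.0481 to 0.0679 and Olfr151 from −0.06 to 0.0544. Against input over windows, with TMM, Olfr544 went from 0.15 to −0.11 and Olfr160 from 0.0016 to −0.24. The value of Olfr160 relative to IgG rests on IgG counts of 0 and 3 and depends on the prior count. Without 1 library, between stages over bodies Olfr1393 ranged from −0.0985 to 0.52, Olfr1507 from −0.03 to 0.23, Olfr544 from −0.0802 to 0.24, Olfr690 from −0.26 to 0.23, Olfr17 from −0.37 to 0.44 and Olfr160 from −0.12 to 0.60. Between stages over windows Olfr544 ranged from −0.0991 to 0.30 and Olfr151 from −0.31 to 0.13. Against input over bodies Olfr73 ranged from −0.57 to 0.81, Olfr2 from −0.33 to 0.37, Olfr17 from −0.21 to 0.0975, Olfr160 from −0.20 to 0.27 and Olfr151 from −0.73 to 1.01. Against IgG over bodies Olfr73 ranged from −0.88 to 0.084, Olfr69 from −0.0978 to 0.64 and Olfr2 from −0.60 to 0.64. Against input over windows Olfr73 ranged from −0.54 to 0.81, Olfr544 from −0.26 to 0.74, Olfr17 from −0.20 to 0.0941, Olfr160 from −0.20 to 0.30 and Olfr151 from −0.80 to 0.93. Against IgG over windows Olfr73 ranged from −0.87 to 0.0853. Between stages relative to input over bodies Olfr1507 ranged from −0.10 to 0.16, Olfr69 from −0.0488 to 0.44, Olfr17 from −0.46 to 0.32 and Olfr160 from −0.67 to 0.0311.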
